A study of Mus musculus with 8 samples.

Results

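Gpa33, Minar2, Rimklb, Efcab1 and Xkr6 are 5 mouse genes best known from other tissues that read far higher in G9a cKO than in G9a WT hair follicle bulge cells. They were selected on that difference in array values, so their values are a description, without a test, and nothing is supported by them. The 5 genes were represented by 13 of the 45141 probe sets on the array, and by 5 of the 17097 genes measured. A probe set is a group of short probes against 1 transcript region, and its value is a log2 expression level that the authors made with RMA. Arrays were hybridised with RNA from bulge cells, 4 replicates with the label G9a cKO and 4 with the label G9a WT. In G9a cKO the gene of the histone methyltransferase G9a is conditionally knocked out. The titles do not state whether each replicate is a separate animal. The animals of all 8 samples were 15 weeks old. From the age of 8 weeks the shaved back skin of both genotypes had been treated weekly for 6 weeks. It received DMBA (0.25 mg/ml), a mutagen, and TPA (0.02 mg/ml), a tumour promoter. Skin without DMBA and TPA was not analysed here, so each value belongs to treated, pre-neoplastic skin. The labels do not state the strain, the sex, the Cre driver, the deleted part of the gene or the way bulge cells were isolated.

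G9a, encoded by Ehmt2, works with its partner GLP to methylate a lysine of histone H3, a mark found on silent genes in otherwise active chromatin. The bulge is the part of the follicle that holds its stem cells. Gpa33 encodes a cell-surface glycoprotein of the immunoglobulin superfamily, known from intestinal epithelium. Minar2 encodes a membrane protein named for its association with the receptor NOTCH2 and is needed for hearing in mice. Rimklb encodes a ligase that joins glutamate to N-acetylaspartate or to citrate, and is known from brain and testis. Efcab1 encodes calaxin, a calcium-binding protein of the outer dynein arms that drive cilia and sperm tails. Xkr6 belongs to the XK family of membrane proteins, whose relative Xkr8 exposes phosphatidylserine on dying cells.

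The 5 genes lie on 5 different chromosomes, Gpa33 on 1, Rimklb on 6, Xkr6 on 14, Efcab1 on 16 and Minar2 on 18 of the RefSeq assembly GRCm38.p6. Promoter windows from the RefSeq table of that build, 250 bases before to 50 after the gene start, were matched to 2 of the 5 members. Minar2 was left out of this search, so the count says nothing about a window for it. The windows of Gpa33 and Rimklb are shown because the annotated start regions of these 2 genes differ in base composition. Which start is used in bulge cells was not measured. The Gpa33 window is chr1:166129971-166130270 on the plus strand and the Rimklb window is chr6:122486256-122486555 on the minus strand, written 5′ to 3′ with each CpG in capitals.
Gpa33: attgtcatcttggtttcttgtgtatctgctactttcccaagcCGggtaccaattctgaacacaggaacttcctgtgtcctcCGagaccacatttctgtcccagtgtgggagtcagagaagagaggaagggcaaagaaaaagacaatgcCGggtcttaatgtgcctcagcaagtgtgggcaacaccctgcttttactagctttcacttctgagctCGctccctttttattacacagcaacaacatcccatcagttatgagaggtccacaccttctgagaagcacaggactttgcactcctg
Rimklb: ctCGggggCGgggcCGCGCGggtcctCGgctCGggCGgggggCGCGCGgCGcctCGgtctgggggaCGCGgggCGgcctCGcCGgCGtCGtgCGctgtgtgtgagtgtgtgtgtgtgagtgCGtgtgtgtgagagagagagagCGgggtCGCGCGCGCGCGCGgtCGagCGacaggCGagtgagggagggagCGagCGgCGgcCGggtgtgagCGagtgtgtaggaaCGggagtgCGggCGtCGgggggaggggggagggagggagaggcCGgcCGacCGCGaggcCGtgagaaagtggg
The Gpa33 window held 4 CpG in 300 bases, an observed-over-expected ratio of 0.234, with a GC content of 48.0%. The Rimklb window held 47 CpG, a ratio of 1.32, with a GC content of 76.3%. Of the 32851 windows in the table, 31.4% held fewer CpG than Gpa33 and 98.6% fewer than Rimklb, so the start of Rimklb was among the densest in CpG while that of Gpa33 lay below the median of 7. Searched on both strands, the GC box GGGCGG was matched 3 times in Rimklb and not in Gpa33, and 35.7% of all windows hold it. The CCAAT box, CCAAT, was matched once in Gpa33, 202 bases before the start, and not in Rimklb, against 37.4% of all windows. The E-box CACGTG (7.15% of windows), the E2F motif GGCGGGA (11.3%), TATAAA (13.6%) and the AP-1 motif TGANTCA (7.81%) had no match in either window.

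The labels were first set beside Ehmt2. Probe set 1460692_PM_at read 6.44, 5.54, 5.80 and 5.64 in cKO replicates 1 to 4 and 9.29, 8.89, 8.93 and 9.15 in WT replicates 1 to 4 (limma adjusted p over all probe sets = 6.64e-05). Probe set 1426888_PM_at, assigned to the same target accession, read 8.39 to 8.43 in cKO and 8.40 to 8.42 in WT (limma adjusted p = 0.995). The labels do not state which of them lies in the deleted part. Array medians were 5.87 to 5.95, correlations between arrays across genes were 0.994 to 0.998, and on the first principal component WT replicate 4 was the WT array nearest to cKO. Bulge and basal keratinocyte markers were high in both genotypes: Krt15, a bulge keratin, had means of 12.36 ± 0.03 in cKO and 12.26 ± 0.06 in WT (SD, n = 4), and Lgr5, a stem cell receptor, read 11.01 ± 0.08 and 11.04 ± 0.05. All 15 of these markers lay above the level that 95% of 42 olfactory receptor probe sets did not exceed, 4.82 on the log2 scale, which is used here as a mark of background. Across all genes, 329 (1.92%) were higher and 143 (0.836%) lower in cKO at a limma adjusted p under 0.05. Without WT replicate 4 these counts were 502 and 294, and over the fits without 1 array they ran from 190 to 502 and from 67 to 294.

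In all 13 member probe sets the 4 cKO values lay above the 4 WT values, where 4.14% of all probe sets did so. The members were chosen for this contrast, so nothing is read from that count. The difference ranged from 0.12 to 3.26 on the log2 scale, or 1.08-fold to 9.56-fold, and reached 2-fold in 8 of the 13 probe sets. By the brightest probe set of each gene the members ranked 2nd (Gpa33), 3rd (Minar2), 6th (Rimklb), 9th (Efcab1) and 10th (Xkr6) among 17097 genes by size of rise. The median difference over the 5 was 1.77 and that over all genes was 0.0027. Just inside the chosen range stood Xkr6 with a difference of 1.56, and the next gene by rank, Aplp1, which encodes a relative of the amyloid precursor protein, read 1.54. These are bulk samples, so more cells that express a gene and more RNA per cell cannot be told apart.

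**Figure D1:**
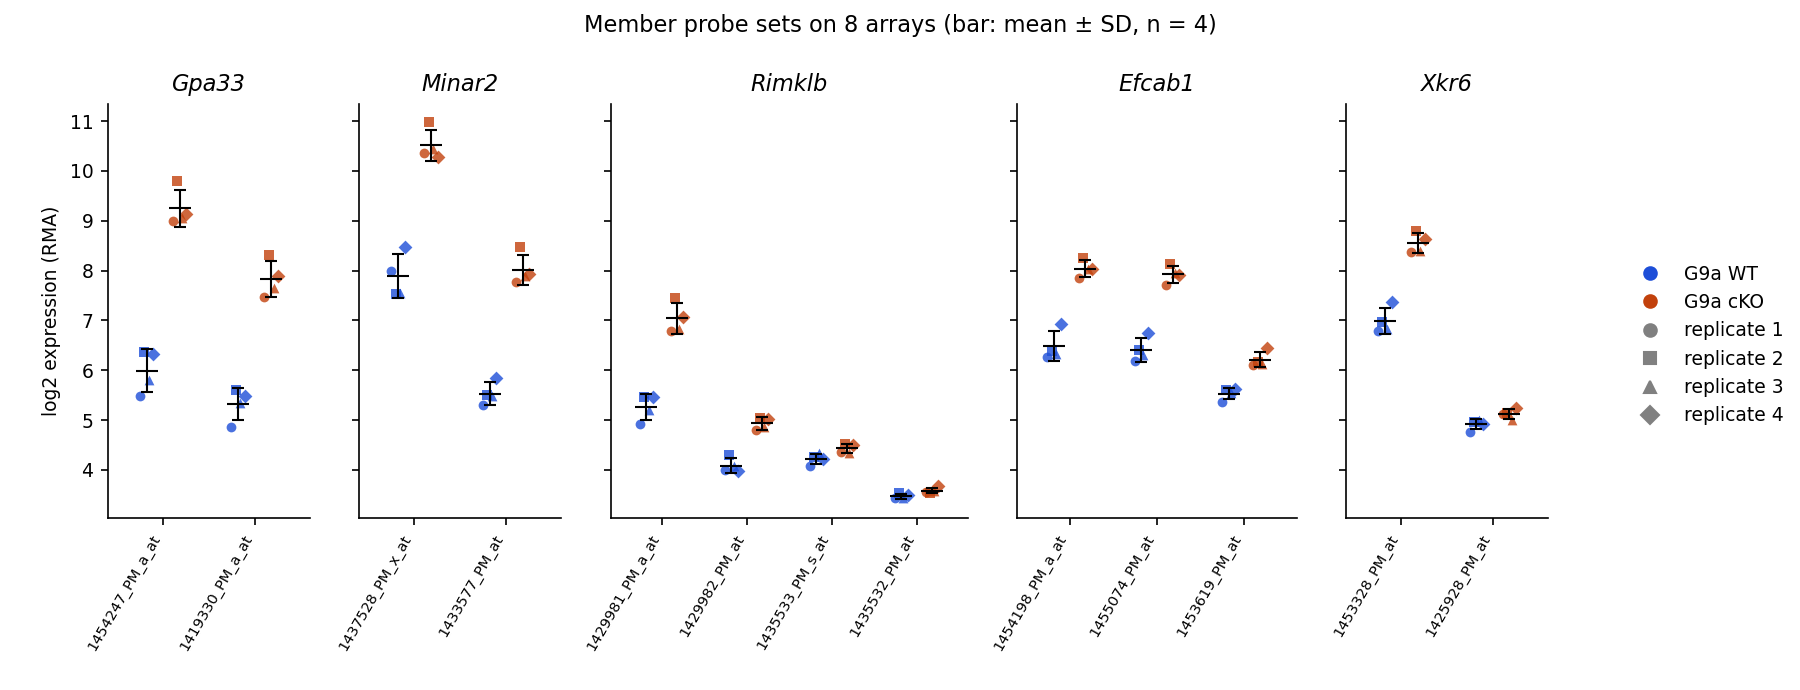
Log2 expression (vertical axis) of the 13 member probe sets (horizontal axis, 1 panel per gene) in 4 G9a WT and 4 G9a cKO arrays, with symbols for replicates and bars for mean ± SD. The cKO values lie above the WT values in each probe set, by 0.12 to 3.26 log2 units, and 3 pairs (2 of Rimklb and 1 of Xkr6) nearly touch.

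Gpa33, the intestinal surface antigen, showed the widest difference of the 5. Probe set 1454247_PM_a_at read 9.004, 9.81, 9.05 and 9.14 in cKO replicates 1 to 4 and 5.48, 6.37, 5.80 and 6.33 in WT replicates 1 to 4. The lowest cKO array stood 2.64 log2 units above the highest WT array, and WT replicates 2 and 4 were the higher WT arrays. The means were 9.25 ± 0.37 and 5.99 ± 0.43 (SD, n = 4), a difference of 3.26 (SE of the limma fit 0.22) or 9.56-fold. The second probe set, 1419330_PM_a_at, read 7.48, 8.31, 7.64 and 7.90 in cKO and 4.87, 5.61, 5.35 and 5.48 in WT. Its difference was smaller, 2.51 (SE 0.19) or 5.68-fold, with the same array highest in each genotype. In both probe sets the WT mean, 5.99 and 5.33, lay above the background mark of 4.82. Over all 13 member probe sets, the WT mean lay at or below this mark in 3 and the cKO mean in 2.

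Minar2, the NOTCH2-associated membrane protein, had similar differences in both of its probe sets. Probe set 1437528_PM_x_at read 10.36, 10.97, 10.44 and 10.27 in cKO and 8.00, 7.53, 7.55 and 8.47 in WT. The groups were 1.81 log2 units apart at their nearest arrays, and WT replicate 4 was the highest of its genotype. The means of 10.51 ± 0.32 and 7.89 ± 0.44 (SD, n = 4) differed by 2.63 (SE 0.21) or 6.17-fold. The suffix _x_at marks probes that can also match other transcripts, so the part of Minar2 in this signal is uncertain. Probe set 1433577_PM_at, which has no such suffix, read 7.78, 8.46, 7.89 and 7.94 in cKO and 5.31, 5.49, 5.48 and 5.85 in WT. It differed by 2.48 (SE 0.15) or 5.59-fold, close to the first.

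Rimklb, the N-acetylaspartylglutamate ligase, was represented by 4 probe sets with unlike differences. Probe set 1429981_PM_a_at read 6.80, 7.46, 6.84 and 7.07 in cKO and 4.93, 5.47, 5.20 and 5.46 in WT. The means of 7.04 ± 0.30 and 5.26 ± 0.25 (SD, n = 4) differed by 1.77 (SE 0.16) or 3.42-fold, with 1.33 log2 units between the nearest arrays. Probe set 1429982_PM_at, assigned to the same target accession, read 4.80, 5.05, 4.86 and 5.03 in cKO and 4.01, 4.30, 4.07 and 3.98 in WT. It differed by 0.84 (SE 0.08) or 1.80-fold, and its WT values lay below the background mark. The other 2 probe sets were dim in both genotypes. Probe set 1435533_PM_s_at, whose suffix marks probes shared between transcripts, read 4.37, 4.51, 4.35 and 4.50 in cKO and 4.09, 4.25, 4.34 and 4.21 in WT. Probe set 1435532_PM_at read 3.56, 3.53, 3.59 and 3.67 in cKO and 3.43, 3.53, 3.44 and 3.49 in WT. Their differences were 0.21 (SE 0.06) and 0.12 (SE 0.04), and the nearest arrays of the groups were only 0.011 and 0.0010 log2 units apart.

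Efcab1, the dynein arm protein calaxin, read higher in cKO in 3 probe sets. Probe set 1454198_PM_a_at read 7.85, 8.25, 8.04 and 8.03 in cKO and 6.28, 6.39, 6.33 and 6.93 in WT. WT replicate 4 stood 0.54 above the next WT array by this probe set, and still 0.92 below the lowest cKO array. The means of 8.04 ± 0.16 and 6.48 ± 0.30 (SD, n = 4) differed by 1.56 (SE 0.14) or 2.95-fold. Probe set 1455074_PM_at read 7.70, 8.13, 7.96 and 7.90 in cKO and 6.18, 6.40, 6.30 and 6.74 in WT, a difference of 1.52 (SE 0.12) or 2.87-fold. Probe set 1453619_PM_at read 6.11, 6.17, 6.12 and 6.44 in cKO and 5.36, 5.60, 5.55 and 5.62 in WT. Its difference of 0.68 (SE 0.09), or 1.60-fold, was smaller than that of the other two.

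Xkr6, the XK family member, had 1 probe set with a wide and 1 with a narrow difference. Probe set 1453328_PM_at read 8.38, 8.79, 8.40 and 8.63 in cKO and 6.80, 6.96, 6.82 and 7.38 in WT. The means of 8.55 ± 0.20 and 6.99 ± 0.27 (SD, n = 4) differed by 1.56 (SE 0.14) or 2.95-fold, and the nearest arrays were 8.38 in cKO and 7.38 in WT. Probe set 1425928_PM_at read 5.12, 5.14, 5.010 and 5.25 in cKO and 4.77, 4.97, 5.004 and 4.92 in WT. Its difference was 0.21 (SE 0.07) or 1.16-fold, near the background mark, with cKO replicate 3 and WT replicate 3 nearly equal.

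Within cKO the 5 genes shared their highest array, and within WT the order was less uniform. By the brightest probe set of each gene, cKO replicate 2 was the highest cKO array in 5 of 5 members, and over all 13 member probe sets in 10, while it was the highest in 19.0% of all probe sets on the array. In cKO replicate 1, 4 of 5 members were lowest, against 19.9% of all probe sets. On average the members stood 0.38 log2 units above their cKO mean in replicate 2 and 0.20 below it in replicate 1. Ehmt2 probe set 1460692_PM_at was lowest in cKO replicate 2, at 5.54, and highest in cKO replicate 1, at 6.44. In WT it was highest in replicate 1, at 9.29, lowest in replicate 2, at 8.89, and read 9.15 in replicate 4. Its part in the order of either genotype was not tested. Among WT arrays replicate 4 was the highest in 3 members (27% of all probe sets) and replicate 2 in the other 2 (27.3% of all probe sets). WT replicate 1 was the lowest in 4 of 5, against 32.5% of all probe sets. The mean deviation was 0.39 in WT replicate 4 and -0.23 in WT replicate 1. The same arrays were highest in many other called genes. Across all genes, 30 (0.175%) were called at least 2-fold higher in cKO, and of the 25 that are not members 21 were highest among cKO arrays in replicate 2 and 14 among WT arrays in replicate 4. Of all 324 other genes called higher, 181 were highest in cKO replicate 2 and 162 in WT replicate 4. Probe sets of 1 gene and genes on 1 array share an RNA sample, so these counts are not independent.

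**Figure D2:**
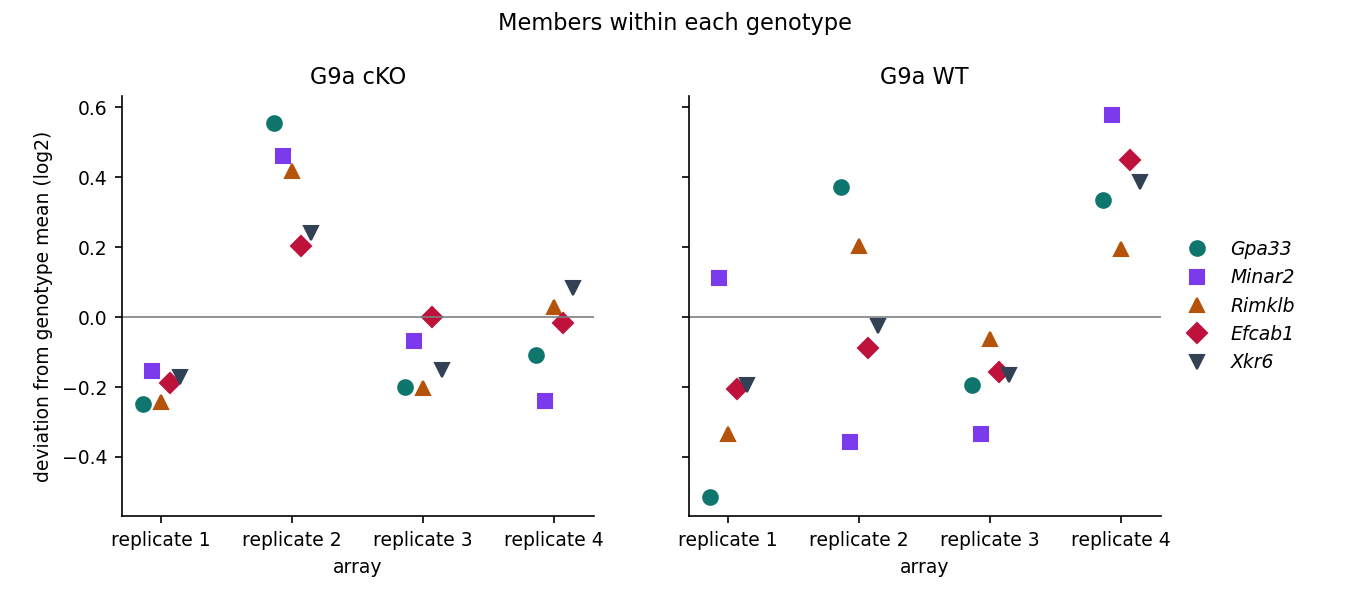
Deviation of each member from the mean of its genotype in log2 units (vertical axis) by array (horizontal axis), for the brightest probe set of each gene in G9a cKO (left) and G9a WT (right). In cKO, replicate 2 lies highest for each of the 5 genes, and in WT, replicate 4 lies above 0 for each of them.

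The genes whose profile over the 8 arrays was most like each member were other large rises. Likeness was the root mean square difference of log2 values centred on each gene's mean, over 8 arrays, and it includes the genotype difference that chose the members. Efcab1 and Xkr6 were each other's nearest gene of all, at 0.073 log2 units, where each varied by 0.81 about its own mean. The next for both was Klhl13, which encodes an adaptor of a ubiquitin ligase, at 0.12 from Efcab1 and 0.11 from Xkr6. The third was Rad51b, a recombination repair gene, for Efcab1 (0.12) and 8430436N08Rik for Xkr6 (0.15). Gpa33 lay nearest to Akr1c13, an aldo-keto reductase gene, at 0.23, then to Minar2 at 0.48 and to Pla2g4f, a cytosolic phospholipase gene, at 0.74. Pla2g4f was also the nearest to Rimklb, at 0.15 and ahead of Klhl13 (0.17) and 8430436N08Rik (0.18). It was the nearest to Minar2 as well, at 0.46, followed by Gpa33 (0.48) and Rad51b (0.49). Minar2 and Gpa33 had no counterpart as close as the pair of Efcab1 and Xkr6. Their differences ranked 3rd and 2nd of 17097 genes, so few genes could lie near them by this measure. Nothing about the genes is read from these distances.

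None of the genes beside the members was called. Of the 30 measured genes that are the 3 nearest on each side of the 5 members, 0 passed a limma adjusted p of 0.05 in either direction, where 2.76% of all genes did. At an unadjusted p under 0.05, 2 of the 30 were higher and 2 lower by limma. The share of all genes under that unadjusted cutoff is not given here. Nothing is therefore read from such counts, for the neighbours or for the lists below. The median difference of the neighbours was 0.011 on the log2 scale, against 0.0027 over all genes, and 16 of 30 lay above 0. Next to Gpa33, Mael, a germline gene that is also on the testis list, read 3.65 ± 0.08 in cKO and 3.71 ± 0.05 in WT (SD, n = 4). By member, the median difference of the 6 neighbours was 0.063 for Gpa33, -0.035 for Minar2, 0.011 for Rimklb, 0.14 for Efcab1 and -0.052 for Xkr6. Beside Efcab1, the transporter gene Abcc1 read 9.26 ± 0.04 in cKO and 9.07 ± 0.07 in WT without overlap (SD, n = 4; limma adjusted p = 0.0850), and the end-joining kinase gene Prkdc read 7.28 ± 0.11 and 7.11 ± 0.09 (limma adjusted p = 0.328). Beside Xkr6, the transcription factor gene Sox7 read 6.11 ± 0.04 and 6.37 ± 0.11 without overlap (limma adjusted p = 0.0723), and it passed with array weights (0.0357) and with the mean of its probe sets (0.0284), with a range over alternatives from 0.0284 to 0.215. The neighbour with the lowest adjusted p was Fbn2, a fibrillin gene near Minar2, at 5.02 ± 0.13 in cKO against 5.47 ± 0.22 (limma adjusted p = 0.0526). It was past the threshold without cKO replicate 1 (limma adjusted p = 0.0369) and without WT replicate 2 (0.0101), as well as after quantile normalization (0.0447), a shift to a common median (0.0402) and with array weights (0.0237), with a range over alternatives of 0.0101 to 0.173.

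**Figure D3:**
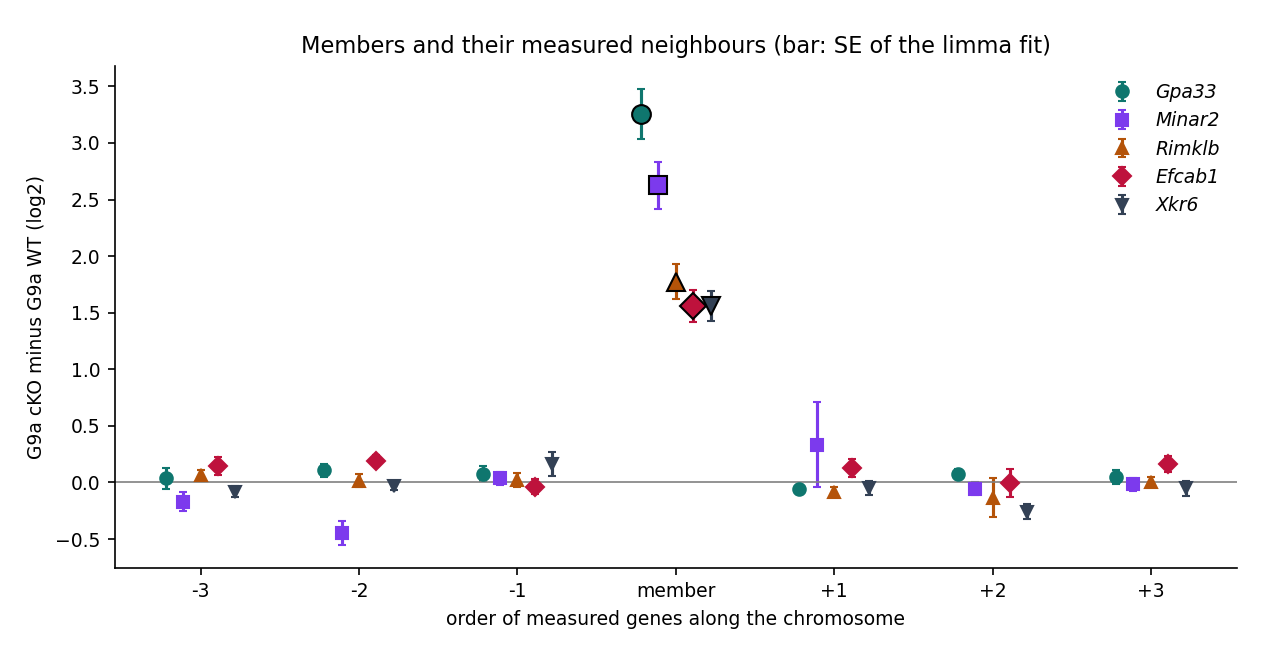
Difference between G9a cKO and G9a WT in log2 units (vertical axis) for each member and its 3 nearest measured genes on either side, in order along the chromosome (horizontal axis), with the SE of the limma fit as bars. The members stand between 1.56 and 3.26 and the neighbours between -0.45 and 0.33.

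Genes of the same families and pathways were called at a share near that of all genes. Of 76 measured genes in the 5 lists of relatives, 1 was higher and 2 were lower in cKO at a limma adjusted p under 0.05, or 3.95% against 2.76% over all genes. None of the 11 immunoglobulin family relatives of Gpa33 passed (median log2 difference -0.015). At an unadjusted p under 0.05, 1 was higher and 1 lower by limma. Igsf5, a tight junction protein gene, had the lowest p of this list, at 4.97 ± 0.07 in cKO against 4.79 ± 0.03 (limma adjusted p = 0.0802). Its WT mean lay below the background mark. Igsf5 passed without cKO replicate 1 (limma adjusted p = 0.0388) and with array weights (0.0425), with a range over its alternatives of 0.0388 to 0.23. Of 19 genes of the Notch pathway and Minar1, 1 fell and none rose (median -0.017). At an unadjusted p under 0.05, 2 were higher and 4 lower by limma, with no share of all genes at that cutoff beside them. Hes1, a Notch target gene, was among those lower, at 7.24 ± 0.20 in cKO against 7.69 ± 0.19 (limma adjusted p = 0.0751). So was Jag1, a ligand gene, at 10.70 ± 0.15 against 10.95 ± 0.07 (limma adjusted p = 0.0999). The 2 that were higher were Nrarp, at 9.52 ± 0.11 in cKO against 9.30 ± 0.17 (limma adjusted p = 0.274), and Lfng, at 9.53 ± 0.05 against 9.38 ± 0.06 (limma adjusted p = 0.153). The gene that fell was Notch3, a Notch receptor gene, which read 8.00, 8.02, 7.77 and 8.10 in cKO and 8.51, 8.23, 8.58 and 8.75 in WT. The groups did not overlap, and Notch3 was 1.46-fold lower in cKO (log2 difference -0.55, SE 0.11, limma adjusted p = 0.0246). It did not pass without cKO replicate 2 (limma adjusted p = 0.0688), cKO replicate 3 (0.0675), WT replicate 1 (0.0648) or WT replicate 3 (0.0876), with a range over alternatives of 0.00709 to 0.0876. Notch2, the receptor for which Minar2 is named, read 8.65 ± 0.05 and 8.76 ± 0.04 (SD, n = 4; limma adjusted p = 0.318), and the paralog Minar1 read 5.05 ± 0.13 and 5.13 ± 0.07 (limma adjusted p = 0.728).

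Of 10 genes of N-acetylaspartylglutamate metabolism, 1 rose and none fell (median -0.0085). Naalad2, which encodes a peptidase that cleaves this dipeptide, read 5.03, 5.41, 5.30 and 5.48 in cKO and 4.72, 5.02, 4.72 and 4.82 in WT. The lowest cKO and the highest WT array were nearly equal, and the log2 difference was 0.49 (SE 0.10, limma adjusted p = 0.0308). In WT, 3 of the 4 arrays lay at or under the background mark, so no fold is given, and the gene was not tested where dim probe sets were left out. The call was lost without cKO replicate 2 (limma adjusted p = 0.11), 3 (0.0783) or 4 (0.0888) and without WT replicate 1 (0.0885) or 3 (0.107), with a range over alternatives from 0.00622 to 0.11. Rimkla, the paralog of Rimklb, read 4.20 ± 0.02 in cKO and 4.22 ± 0.08 in WT, below the background mark (SD, n = 4; limma adjusted p = 0.945). None of 24 genes of the outer dynein arm and motile cilium passed (median 0.015), and at an unadjusted p under 0.05, 3 were higher and 0 lower by limma. Tekt2, a gene of ciliary and flagellar microtubules, had the lowest p, at 8.45 ± 0.19 and 8.10 ± 0.04 (limma adjusted p = 0.0750). It passed without cKO replicate 1 (limma adjusted p = 0.0186) and with array weights (0.0348), with a range over alternatives of 0.0186 to 0.195.

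Of 12 genes of the XK family and of lipid scrambling, 1 fell and none rose (median 0.000036). Xkr8, the scramblase gene, read 5.88, 5.93, 5.97 and 5.81 in cKO and 6.42, 6.30, 6.23 and 6.18 in WT. The groups did not overlap, and Xkr8 was 1.31-fold lower in cKO (log2 difference -0.38, SE 0.07, limma adjusted p = 0.0122), the opposite direction to Xkr6. This call held in each of the 8 fits without 1 array, and over all its alternatives the limma adjusted p ran from 0.00902 to 0.0557. The other measured members of the family, Xk, Xkrx, Xkr4 and Xkr5, had limma adjusted p of 0.907 or more.

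**Figure D4:**
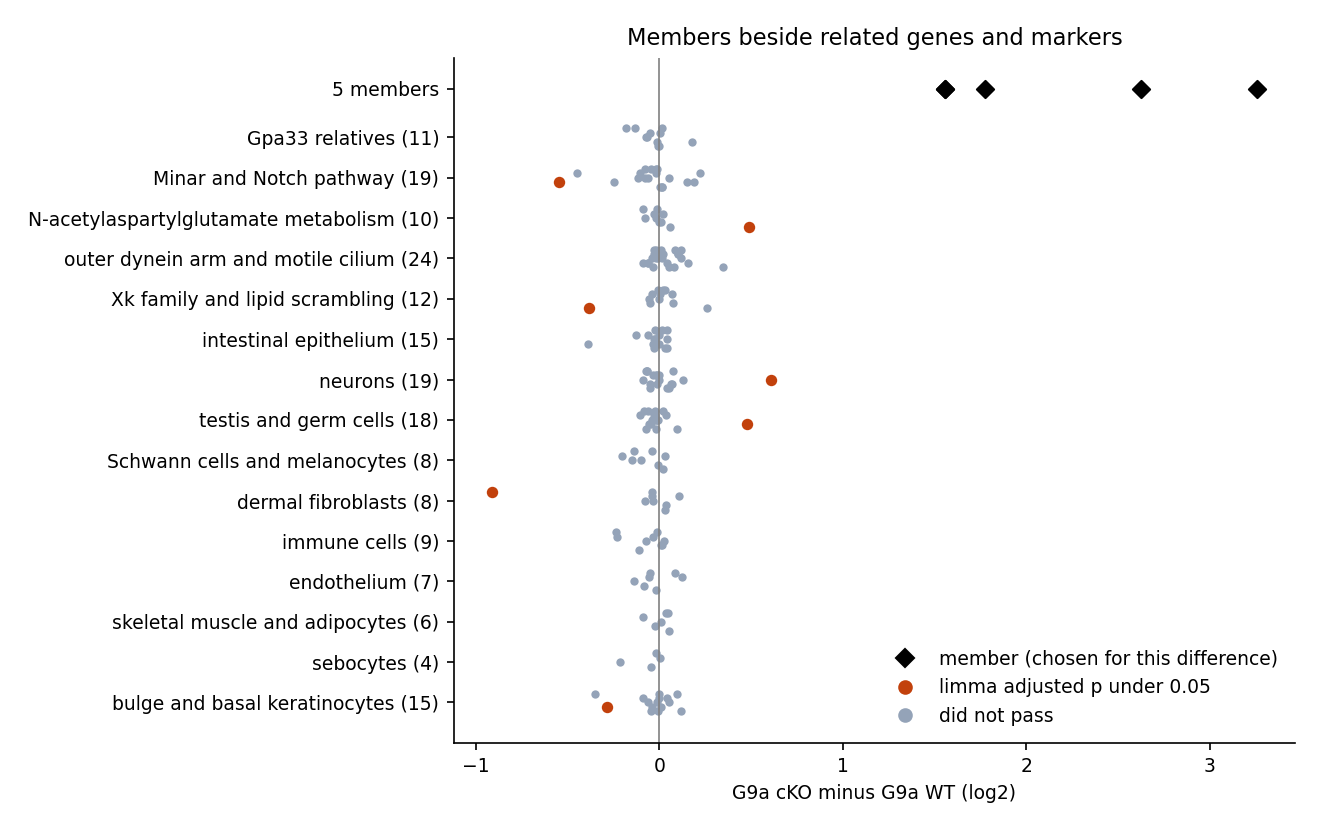
Difference between G9a cKO and G9a WT in log2 units (horizontal axis) for the 5 members (black diamonds, with Efcab1 and Xkr6 on one another) and for each measured gene of 15 lists (vertical axis, number of genes in brackets), with genes at a limma adjusted p under 0.05 in orange. Related genes and markers gather near 0, and of the orange points none lies beyond 1 log2 unit.

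Of 52 measured markers of intestine, neurons and testis, tissues in which members are best known, 2 were higher and 0 lower in cKO, or 3.85% against 2.76% of all genes. Of all 94 markers of other tissues and cell types, 2 were higher and 1 lower, or 3.19%. None of 15 intestinal markers passed (median log2 difference -0.023), and at an unadjusted p under 0.05, 0 were higher and 2 lower by limma. Their summed level, on the linear scale of the arrays, was 926 to 958 in cKO and 947 to 1031 in WT. By their mean over all arrays, 8 of the 15 lay above the background mark and 7 at or below it. Among the former was Cdx2, an intestinal homeobox gene, at 5.67 ± 0.02 in cKO against 5.70 ± 0.09 (SD, n = 4; limma adjusted p = 0.923). Among the latter were Vil1, the villin gene, at 4.23 ± 0.11 against 4.25 ± 0.06 (limma adjusted p = 0.931), and Cdh17, a cadherin gene, at 3.72 ± 0.03 against 3.72 ± 0.04 (0.999). RMA values have no 0, so absence cannot be read from them. The lowest p of the list was that of Guca2a, the guanylin gene, at 6.80 ± 0.16 in cKO against 7.19 ± 0.35 (limma adjusted p = 0.284), and it passed without WT replicate 4 (limma adjusted p = 0.0128, range over alternatives 0.0128 to 0.562).

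Of 19 neuronal markers, 1 rose and none fell (median -0.010), with a summed level of 670 to 698 in cKO and 629 to 670 in WT. This sum includes Stmn2, the gene that rose, and a sum without it was not computed. Of the 19, 7 had a difference above 0. At an unadjusted p under 0.05, 3 were higher and 0 lower by limma. Stmn2, a microtubule regulator gene of growing neurites, read 6.04, 5.96, 6.31 and 6.47 in cKO and 5.54, 5.74, 5.43 and 5.62 in WT. It was 1.53-fold higher without overlap (log2 difference 0.61, SE 0.11, limma adjusted p = 0.0173). It did not pass without cKO replicate 3 (limma adjusted p = 0.0548), WT replicate 1 (0.0554) or WT replicate 3 (0.0651). Nor did it pass with the mean of its probe sets (limma adjusted p = 0.0640) or the replicate block (0.0587), with a range over alternatives from 0.0154 to 0.0651. Of 18 markers of testis and germ cells, 1 rose and none fell (median -0.023), and the summed level was 587 to 624 in cKO and 573 to 639 in WT. Zpbp, which encodes a sperm protein that binds the egg coat, was the gene that rose, at 4.70 ± 0.10 in cKO against 4.22 ± 0.08 (SD, n = 4; limma adjusted p = 0.00211), with the values of both genotypes below the background mark.

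Among markers of other skin cells 1 gene was called. Col1a1, a collagen gene of fibroblasts, was 1.88-fold lower in cKO, at 6.17 ± 0.19 against 7.08 ± 0.11 (SD, n = 4; limma adjusted p = 0.00100). The summed level of the 8 fibroblast markers was 2100 to 2184 in cKO and 2211 to 2376 in WT, of which Fbln1, a matrix protein gene, made up 87.3% to 90.1% in each array (10.91 ± 0.03 in cKO against 10.99 ± 0.05, limma adjusted p = 0.402). The other 7, Col1a1 included, summed to 208 to 229 in cKO and 272 to 284 in WT. A sum without Col1a1 was not computed, so no fall of the other markers is read from this. Of the 8, 3 had a difference above 0 (Col1a2 0.11, Dcn 0.034 and Lum 0.033 on the log2 scale). The median log2 difference of the 8 was -0.037, and 3 of them lay above the background mark. In the other 5 lists, 0 of 34 markers passed, with 1 higher and 2 lower at an unadjusted p under 0.05 by limma. For the 8 Schwann cell and melanocyte markers the summed level was 1030 to 1250 in cKO and 1089 to 1391 in WT, and the lowest p was that of Pmel (limma adjusted p = 0.224). For 9 immune markers it was 319 to 442 and 333 to 526 (lowest for Cd68, limma adjusted p = 0.165, and 0.0466 with array weights), and for 7 endothelial markers 209 to 239 and 201 to 242 (lowest for Tek, limma adjusted p = 0.347). For 6 markers of muscle and fat it was 138 to 141 and 134 to 145 (lowest for Adipoq, limma adjusted p = 0.599), and for 4 of sebocytes 359 to 508 and 387 to 515 (lowest for Mgst1, limma adjusted p = 0.634). Of the 15 bulge and basal keratinocyte markers, Foxc1, a transcription factor gene of bulge quiescence, fell 1.22-fold (limma adjusted p = 0.0165) and none rose. It did not pass without cKO replicate 2 (limma adjusted p = 0.0731), 3 (0.0608) or 4 (0.0517), without WT replicate 1 (0.0510) or with the replicate block (0.0682), with a range over alternatives of 0.0102 to 0.0731. Nfatc1, on the same list, was 1.27-fold lower without overlap but did not pass (limma adjusted p = 0.0566). Of the 15, 5 had a difference above 0. The part of any of these cells in the members' levels was not tested.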

How the data were processed

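RNA from bulge cells of 8 samples was extracted with TRizol, amplified from 25 ng with 17 cycles, fragmented and biotinylated, per the labels' protocols. The deposited values are log2 expression per probe set made by the authors with RMA, per the submitters' processing notes, whose version is not stated there. RMA corrects background and normalizes between arrays, and it compresses differences of dim probe sets. The small number of arrays limits precision.

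Of 45141 probe sets, 28898 had 1 gene symbol in the platform annotation, 551 several and 15692 none here, and 0 columns of other samples were present. Each gene was represented by its brightest probe set by mean over 8 arrays, and all probe sets of the members are given. The 4 cKO and 4 WT arrays were compared in R 4.3.3 by a two-sided linear model with limma 3.58.1 and its trended eBayes step, and p-values were adjusted over all genes by Benjamini-Hochberg with a threshold of 0.05. The fit was tested on simulated data. The titles number 4 replicates per genotype without stating that each is a separate animal, and p-values refer to the spread between these replicates. Same-numbered replicates were checked for pairing: their deviations correlated at -0.33, -0.27, -0.53 and 0.03. These values gave no sign of pairing by number, but 4 correlations without differently numbered pairs beside them cannot exclude it.

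Lists of relatives and markers, 211 entries with 185 measured, and the rule for neighbours (3 measured genes on each side) were written down with the design. The members and lists were chosen with earlier results of these data known. Named are all member and Ehmt2 probe sets, list genes past the threshold or else the one with the lowest p, neighbours past the threshold and the 3 most alike genes per member. Krt15, Lgr5, Nfatc1, Notch2, Minar1, Rimkla, Cdx2, Vil1, Cdh17, Fbln1, Col1a2, Dcn, Lum, Hes1, Jag1, Nrarp, Lfng, Aplp1, the other XK genes and the neighbours given by name were added for description after their values were seen. Alternatives were renormalization, a filter on the dimmest 40% of probe sets, other probe set rules, other limma settings, thresholds, a replicate block and leaving out each array. Figures were drawn with matplotlib 3.10.9.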

Additional observations from a re-analysis of the deposited data

How the results depend on the processing

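The members' differences were computed under 13 alternatives (other normalizations, array weights, the replicate block, the mean of probe sets and 8 fits without 1 array). They kept their sign in all 13. They moved by more than the spread between replicate arrays only when all probe sets of a gene were averaged. The log2 difference was then 0.74 for Rimklb, 1.25 for Efcab1 and 0.89 for Xkr6. The average takes in the dim probe sets given above. Without 1 array they ran from 3.07 to 3.38 for Gpa33, 2.47 to 2.82 for Minar2, 1.64 to 1.86 for Rimklb, 1.49 to 1.71 for Efcab1 and 1.48 to 1.69 for Xkr6. Counts of calls moved more, and the cause was not tested. Without 1 array, genes called higher ran from 190 to 502 and lower from 67 to 294, related genes from 0 to 3 and from 1 to 4, markers from 1 to 2 in both directions, and neighbours called lower from 0 to 1. The extremes over all genes were 502 and 294 without WT replicate 4, 190 higher without cKO replicate 2 and 67 lower without WT replicate 3. With the replicate block, 191 genes were higher and 77 lower. In that fit 0 related genes were lower (limma adjusted p = 0.0557 for Xkr8 and 0.0507 for Notch3) and 1 marker was higher. The members' differences are the same by construction, and the labels do not state whether replicate numbers pair the arrays. With array weights 249 genes were lower, 3 related genes higher and 4 lower, 2 markers lower and 2 neighbours lower. At a threshold of 0.01, 159 genes were higher and 44 lower, 0 related genes passed and 1 marker was higher; at 0.1, 497 were higher and 247 lower, 3 related genes higher and 4 lower, and 1 neighbour higher and 2 lower. Without dim probe sets 0 related genes and 1 marker were higher, and with the mean of all probe sets 2 related genes and 1 marker. Exactly 1 neighbour was lower after quantile normalization, after shifting arrays to a common median, with the mean of all probe sets and with all probe sets tested. Signal near background limits what the dim probe sets of Rimklb and Xkr6 can show.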
